A study of Mus musculus with 4 samples.

Results

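Tumour necrosis factor (TNF) and the lymphotoxins, together with their receptors and 4 genes switched on downstream of them, were followed through the healing of the mouse carotid artery. The 10 genes were taken as a named list, Tnf, Lta, Ltb, Tnfrsf1a, Tnfrsf1b, Ltbr, Tnfaip3, Nfkbia, Traf1 and Birc3, out of 31053 genes in the count tables, and all 10 had unique molecular identifiers (UMIs, one per captured transcript). They were measured in each cell class and on each day. The single-cell libraries came from carotid arteries of male C57BL/6 mice that were 11 weeks old before injury. The injury was made by moving a wire along the left carotid artery, which scrapes off the endothelium. The study describes it as a deep injury that also breaks the internal elastic lamina. There was 1 library from before injury (day 0) and 1 each from days 3, 7 and 14 after it. For each time point after injury the study's methods give at least 5 carotids, from as many mice, combined in 1 suspension, with thrombosed vessels left out. Every suspension was made by 1 h of enzymatic digestion at 37 °C followed by removal of dead cells, and libraries came from a droplet kit that reads the 3′ end of transcripts. Each day thus rested on a single library. A difference between days cannot be told apart from a difference between libraries, no test was made, and every interval below is a 95% interval for counting error only.

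TNF and the lymphotoxins are related cytokines that immune cells make in response to infection and tissue damage. TNF and secreted lymphotoxin alpha bind the 2 TNF receptors, whereas the membrane complex of lymphotoxins alpha and beta binds a receptor of its own. All of them activate the transcription factor NF-κB, which drives inflammatory genes and also the genes of its own inhibitors. In the vessel wall these signals are known to make endothelial, muscle and adventitial cells attract leukocytes.

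The 3 ligand genes are neighbours. On the RefSeq annotation of GRCm38.p6, Ltb lies at chr17:35194507-35196305 on the plus strand, Tnf at chr17:35199367-35202007 and Lta at chr17:35203165-35205578, both on the minus strand, with 3061 and 1157 bases between them. The receptor genes Ltbr (chr6:125306571-125313885, minus strand) and Tnfrsf1a (chr6:125349723-125362483, plus strand) are 35837 bases apart. Tnfrsf1b lies at chr4:145212368-145246870, Tnfaip3 at chr10:19000910-19015410, Nfkbia at chr12:55489409-55492647, Traf1 at chr2:34941750-34961812 and Birc3 at chr9:7847468-7873205, all on the minus strand. The genome build behind the deposited counts is not usable as stated in the sources, so these positions describe the genes and not the reads.

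The 150 bases before the annotated start are shown for Nfkbia, Tnfaip3 and Ltb, the 3 members with a match to the letters of an NF-κB site (κB), and for Tnf, the central ligand. They were taken from RefSeq promoter windows of GRCm38.p6 and are written 5′ to 3′ on the strand of the gene. Capitals mark a κB match on either strand, which is GGG followed by any 3 bases and then TTCC, or, in Tnf, to the TATA letters TATAAA on the strand of the gene. The windows are chr12:55492648-55492797 for Nfkbia, chr10:19015411-19015560 for Tnfaip3, chr17:35194357-35194506 for Ltb and chr17:35202008-35202157 for Tnf.
Nfkbia: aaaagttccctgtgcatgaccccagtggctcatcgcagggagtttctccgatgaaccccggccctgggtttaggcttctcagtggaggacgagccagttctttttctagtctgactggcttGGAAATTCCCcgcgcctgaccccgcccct
Tnfaip3: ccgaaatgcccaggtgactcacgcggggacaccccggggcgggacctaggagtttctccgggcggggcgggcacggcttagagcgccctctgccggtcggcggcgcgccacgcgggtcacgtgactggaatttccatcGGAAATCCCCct
Ltb: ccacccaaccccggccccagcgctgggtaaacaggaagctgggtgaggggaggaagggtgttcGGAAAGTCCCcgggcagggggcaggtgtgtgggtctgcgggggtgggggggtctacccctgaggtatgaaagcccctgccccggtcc
Tnf: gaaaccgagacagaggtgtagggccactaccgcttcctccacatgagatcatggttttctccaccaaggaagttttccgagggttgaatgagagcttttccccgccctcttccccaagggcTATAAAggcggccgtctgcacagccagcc

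The κB match began 29 bases before the start of Nfkbia, 12 bases before that of Tnfaip3 and 87 bases before that of Ltb. Tnfaip3 had a second annotated window, with a match 90 bases before its start. Within the 250 bases upstream of a start, 4 of the 11 windows of the 10 genes held a κB match, as did 1527 of 32851 windows in all (4.65%). TATAAA was found 29 bases before the start of Tnf, 167 before that of Lta and 225 before that of Tnfaip3, and in 2494 of all windows (7.59%). The letters were chosen after these windows had been looked at, and a match is not a bound site. The absence of these letters from the other windows says nothing about the factors.

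Library depth differed between days. There were 333, 1689, 3001 and 1138 barcodes on days 0, 3, 7 and 14, with 2672722 to 27973418 UMIs in a library. After filtering, 5619 of 6161 cells were kept, and 217 barcode sequences of 5944 occurred in more than 1 library. Clustering gave 32 clusters and 12 named classes, and 768 cells (13.7%) stayed unnamed. A class of 18 erythroid-like cells, is not described further. Each name stands for resemblance to marker genes, and the 10 genes were kept out of the clustering. Day 0 was small and held mainly fibroblast-like cells (235), with 23 smooth muscle-like, 19 T cell-like, 7 endothelial-like and 3 monocyte/macrophage-like cells. Immune classes were therefore compared with day 3. Levels are CPM, the UMIs of a gene in a class on a day scaled to 1000000 UMIs of those cells, and levels are compared within a gene and never between genes. A gene was compared between days when both sums together held at least 20 UMIs, and it was counted as higher or lower at a ratio of at least 2 or at most 0.5. The map of levels by class and day shows all 10 genes.

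**Figure D1:**
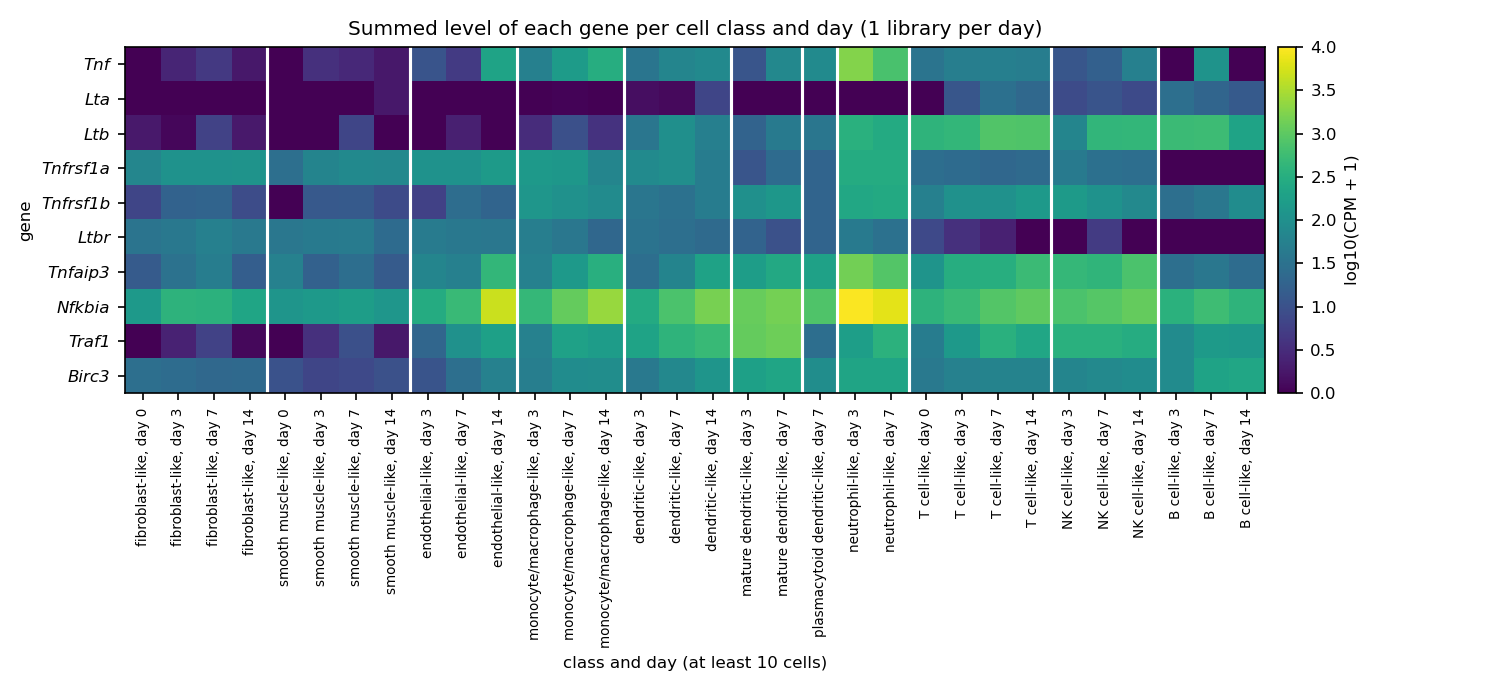
Level of each of the 10 genes (rows) in every class and day with at least 10 cells (columns), as log10(CPM + 1) of the summed UMIs. Tnf, Tnfaip3 and Nfkbia were brightest in neutrophil-like cells, Traf1 in mature dendritic-like cells and Ltb in T cell-like cells, whereas Ltbr was dark in lymphoid classes.

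Tnf, the founding cytokine of the family, was highest in neutrophil-like and monocyte/macrophage-like cells after injury. In neutrophil-like cells it stood at 1783 CPM (1684 to 1887; 1196 UMIs in 233 cells) on day 3 and at 704 CPM (621 to 795; 261 UMIs in 120 cells) on day 7. In monocyte/macrophage-like cells it stood at 54.4, 153 and 305 CPM on days 3, 7 and 14 (251, 1346 and 421 UMIs). The neutrophil-like level was thus the highest of all classes and was lower on day 7, by a ratio of 0.395 (0.344 to 0.452), while the monocyte/macrophage-like level was higher on each later day. Dendritic-like cells held 34.4, 65.7 and 79.0 CPM on the same days, and mature dendritic-like cells 10.3 and 73.1 CPM on days 3 and 7. The latter pair rested on 4 and 42 UMIs. T cell-like cells stayed between 33.7 and 52.2 CPM on all 4 days, with overlapping intervals, and over all days they were not separated from dendritic-like cells (50.5 and 55.1 CPM). NK cell-like cells held 10.9, 15.9 and 54.5 CPM on days 3, 7 and 14, from 3, 16 and 8 UMIs, and the intervals of days 3 and 14 overlapped. Plasmacytoid dendritic-like cells had 9 UMIs on day 7 (81.7 CPM, 10 cells), and B cell-like cells had 0, 6 and 0 UMIs on days 3, 7 and 14.

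In cells of the vessel wall Tnf was at or near 0. Fibroblast-like cells had 0, 9, 22 and 7 UMIs on days 0, 3, 7 and 14, which is at most 3.63 CPM, and smooth muscle-like cells had at most 7 UMIs on any day. Endothelial-like cells reached 205 CPM on day 14, but all 11 UMIs were in 1 of 24 cells. That cell carried markers of monocyte/macrophage-like cells at 25241 CPM in sum, against 2065 CPM in the other 23 endothelial-like cells of the day, and endothelial markers at 2124 CPM. Without it the level was 0. With every cell thinned to 1000 UMIs, 84 of 222 neutrophil-like cells (37.8%) had a Tnf UMI on day 3 and 33 of 108 (30.6%) on day 7, against 48.9% and 40.8% before thinning. In monocyte/macrophage-like cells the thinned share was 6.30%, 12.3% and 22.4% on days 3, 7 and 14, against 24.6%, 41.9% and 54.0% before thinning. In fibroblast-like cells, which served as the background, 0 of 210, 0 of 136, 1 of 188 and 0 of 483 thinned cells had one on days 0, 3, 7 and 14. Before thinning the fibroblast-like share was 2.82% on day 3 and 7.89% on day 7, at a median of 3326 and 29578 UMIs per cell, against 2859 and 3040 UMIs in neutrophil-like cells. A count of 0 in 210 cells, set to 3, gives a share of 1.43% of cells with a UMI at this depth. That value does not limit the share of cells that express Tnf.

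The class that held most Tnf changed from day 3 to day 7. On day 0 the library had 5 Tnf UMIs, all in T cell-like cells. On day 3 neutrophil-like cells held 75.0% of 1595 UMIs (72.8% to 77.1%), although they were 15.5% of the cells. On day 7 monocyte/macrophage-like cells held 59.5% of 2262 UMIs and were 32.6% of the cells, and on day 14 they held 83.2% of 506 UMIs and were 14.8% of the cells. Neutrophil-like cells held 11.5% on day 7, and no neutrophil-like cell was present on day 14. Dendritic-like cells held 5.39%, 11.9% and 5.34% on days 3, 7 and 14.

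**Figure D2:**
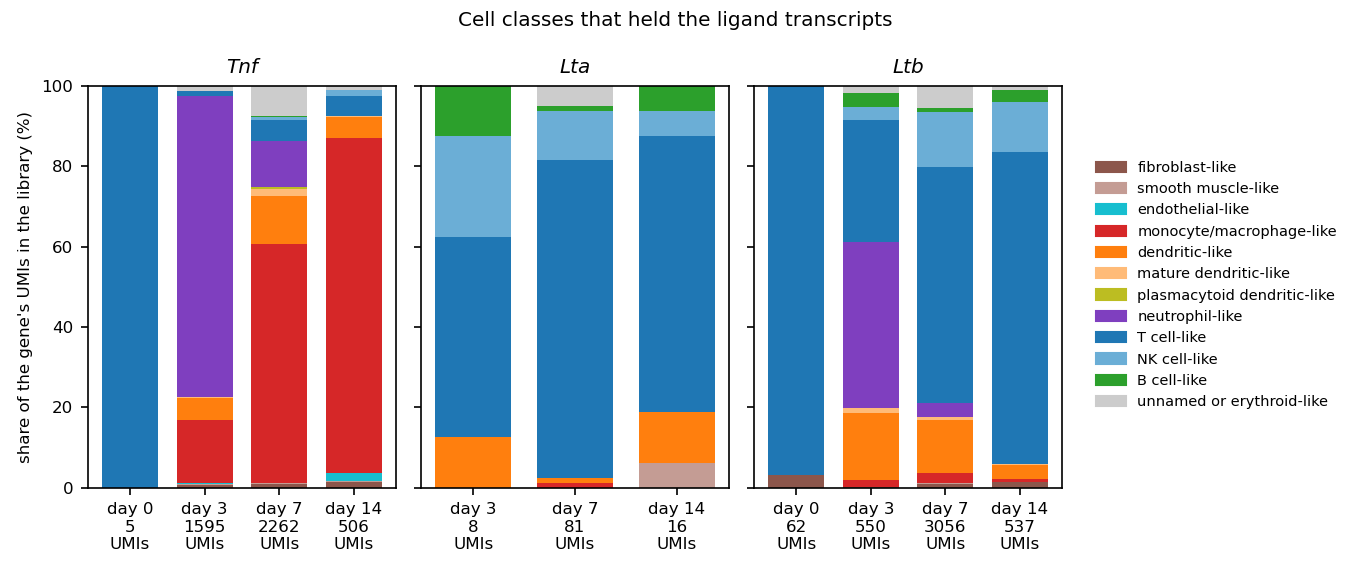
Share (%) of the UMIs of Tnf, Lta and Ltb in each library that lay in each cell class (stacked bars), with the number of UMIs under each bar. The main holder of Tnf was the neutrophil-like class on day 3 and the monocyte/macrophage-like class on days 7 and 14, and T cell-like cells held most Lta on days 7 and 14 and most Ltb on days 0, 7 and 14.

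Lta, which encodes lymphotoxin alpha, was rare and lymphoid. T cell-like cells had 0, 4, 64 and 11 Lta UMIs on days 0, 3, 7 and 14, or 0, 10.6, 28.8 and 21.1 CPM. NK cell-like cells had 2, 10 and 1 UMIs on days 3, 7 and 14, and B cell-like cells had 1 on each of these days. Other classes had at most 2 UMIs on a day, and fibroblast-like, endothelial-like, neutrophil-like and mature dendritic-like cells had 0. T cell-like cells held 64 of the 81 Lta UMIs of day 7 (79.0%) and 11 of 16 on day 14 (68.8%). At this depth Lta gave no more than a presence in lymphoid cells.

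Ltb, which encodes the partner that anchors lymphotoxin at the membrane, was abundant enough to follow in lymphoid cells. T cell-like cells held it at 405, 439, 807 and 799.5 CPM on days 0, 3, 7 and 14, from 60, 166, 1792 and 417 UMIs. In NK cell-like cells Ltb stood at 65.2 CPM (38.6 to 103) on day 3, 421 CPM (382 to 463) on day 7 and 449 CPM (347 to 572) on day 14. Levels were higher on days 7 and 14 than on day 3 in both classes, by 1.84 (1.57 to 2.17) and 1.82 (1.52 to 2.19) in T cell-like cells and by 6.46 (4.04 to 11.0) and 6.89 (4.04 to 12.3) in NK cell-like cells. The NK cell-like value of day 3 rested on 18 UMIs in 58 cells. T cell markers summed to 514, 619 and 545 CPM in NK cell-like cells on days 3, 7 and 14 (9, 9 and 7 of 9 markers), and NK cell markers to 16001, 7739 and 8945 CPM (8 of 8). Their part in the Ltb levels was not tested. B cell-like cells held 527, 553 and 211 CPM from 19, 29 and 17 UMIs.

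Within the T cell-like class, the cluster led by Trdc and Cxcr6, with genes of γδ T cells, held Ltb at 1463 CPM (1329 to 1607) on day 7 and 1173 CPM on day 14. The cluster led by Trac and Trbc2 held Ltb at 704 CPM (667 to 743) and 633.5 CPM on those days. The intervals did not overlap on either day. The Trdc and Cxcr6 cluster held 7 of 67 T cell-like cells on day 3, 47 of 361 on day 7 and 25 of 95 on day 14. Within the Trac and Trbc2 cluster, Ltb stood at 390.5 CPM (326 to 464) on day 3, below its levels of both later days without overlap of the intervals. Outside lymphoid cells, Ltb was also present in neutrophil-like cells, at 340 CPM on day 3 and 278 CPM on day 7. It stood at 36.4, 97.5 and 52.6 CPM in dendritic-like cells and at no more than 8.55 CPM in monocyte/macrophage-like cells. Neutrophil-like cells held 41.5% of the 550 Ltb UMIs of day 3, and T cell-like cells held 30.2%. T cell-like cells held 96.8% of 62 UMIs on day 0, 58.6% of 3056 on day 7 and 77.7% of 537 on day 14. With cells thinned to 1000 UMIs, 49.6% of T cell-like cells had an Ltb UMI on day 7 (85.3% before thinning), against 0.810% of monocyte/macrophage-like cells (6.37% before thinning).

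Tnfrsf1a, which encodes the broadly expressed TNF receptor with a death domain, was present in stromal and in most myeloid classes. Fibroblast-like cells held it at 68.3, 108, 107 and 111 CPM on days 0, 3, 7 and 14. Neutrophil-like cells held 291 CPM on day 3 and 289 CPM on day 7, the highest level of any class over all days, without overlap with the next. Endothelial-like cells held 109 CPM on both day 3 and day 7. T cell-like cells held between 20.7 and 27.0 CPM, and mature dendritic-like cells were as low, at 18.8 CPM over all days (11.3 to 29.4). B cell-like cells had 0 UMIs in 44 cells, with an interval that reached 21.8 CPM. In monocyte/macrophage-like cells the level was 141, 129 and 64.4 CPM on days 3, 7 and 14, and day 14 stood below both earlier days without overlap of the intervals.

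Tnfrsf1b, the TNF receptor of leukocytes, was higher in most immune classes than in mesenchymal classes. Over all days it stood at 257 CPM in neutrophil-like cells, 122 in mature dendritic-like, 114 in NK cell-like, 109 in monocyte/macrophage-like and 107 in T cell-like cells, and the last 4 had overlapping intervals. B cell-like cells held 59.1 CPM (28.4 to 109) and dendritic-like cells 33.0 CPM. Plasmacytoid dendritic-like cells, at 16.2 CPM (1.97 to 58.6), were not separated from fibroblast-like cells at 12.6 CPM or smooth muscle-like cells at 10.7 CPM. Fibroblast-like cells held 5.76, 17.2, 18.3 and 7.47 CPM on days 0, 3, 7 and 14, and smooth muscle-like cells held between 0 and 12.4 CPM. In fibroblast-like cells the levels of days 3 and 7 were 2.98 times (1.66 to 5.80) and 3.18 times (1.79 to 6.16) that of day 0. The level of day 14 was not separated from that of day 0 (1.30; 0.709 to 2.56).

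Ltbr, the receptor of the membrane lymphotoxin complex, was near 0 in the lymphoid classes that held its ligand genes. Over all days it stood at 43.0 CPM in fibroblast-like, 41.7 in endothelial-like, 39.6 in monocyte/macrophage-like, 38.7 in smooth muscle-like and 37.4 in neutrophil-like cells. These 5 classes were not separated by their intervals. NK cell-like cells held 2.80 CPM and T cell-like cells 1.53 CPM, and B cell-like cells had 0 UMIs. Over 28 groups of class and day with at least 20 cells, Pearson's r of log2(CPM + 10) between Ltbr and Ltb was -0.76. Groups of a day share a library, so this value is a description.

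Nfkbia encodes IκBα, the inhibitor that holds NF-κB in the cytoplasm and is itself a quick target of the factor. Neutrophil-like cells held 9455 CPM (9224 to 9691) on day 3 and 6821 CPM (6558 to 7092) on day 7. Monocyte/macrophage-like cells held 457, 1150.0 and 2370.5 CPM on days 3, 7 and 14, and dendritic-like cells 275, 741 and 1524 CPM. The order of days was thus the same as for Tnf in these 3 classes, with the neutrophil-like level lower on day 7 and the other levels higher on each later day. T cell-like cells held 391, 505, 851 and 1051 CPM on days 0, 3, 7 and 14, and in NK cell-like cells Nfkbia stood at 746, 875 and 1144 CPM on days 3, 7 and 14. Mature dendritic-like cells held 1162 and 1439.5 CPM on days 3 and 7. Smooth muscle-like cells held between 120.2 and 167 CPM on all 4 days.

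Tnfaip3 encodes A20, a ubiquitin-editing enzyme that ends NF-κB signalling. It stood at 1419.5 CPM and 836 CPM in neutrophil-like cells on days 3 and 7, and at 57.3, 143 and 336 CPM in monocyte/macrophage-like cells on days 3, 7 and 14. NK cell-like cells held 456, 414 and 735 CPM on these days, and T cell-like cells 115, 309, 325 and 537 CPM on days 0, 3, 7 and 14. Both classes stood above fibroblast-like cells, which held between 13.3 and 48.9 CPM, and smooth muscle-like cells, which held between 12.9 and 55.5 CPM. B cell-like cells did not, with 24.8 to 38.2 CPM by day. The highest of the smooth muscle-like values came from 6 UMIs on day 0.

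Traf1, an adaptor that binds TNF receptor 2 and other receptors of the family, marked mature dendritic-like cells. These held 1134 CPM (1031 to 1245) on day 3 and 1293 CPM (1202 to 1390) on day 7. Over all days their level was 1242 CPM, and the next class, NK cell-like cells, held 343 CPM (313 to 374). All 28 mature dendritic-like cells of day 3 had a Traf1 UMI (100%), and 53.6% did when thinned to 1000 UMIs. Fibroblast-like cells, as a background, had 0 of 136 on that day after thinning and 3.76% before it. Dendritic-like cells held 212, 393 and 488 CPM on days 3, 7 and 14. Birc3 encodes cIAP2, a ubiquitin ligase of the TNF receptor complex that protects cells from death. In dendritic-like cells it stood at 41.2, 72.3 and 123 CPM on days 3, 7 and 14. Endothelial-like cells had 2, 22 and 3 Birc3 UMIs on these days. Neutrophil-like cells held 219 and 216 CPM, mature dendritic-like cells 187 and 223 CPM, B cell-like cells between 83.3 and 236 CPM, fibroblast-like cells between 21.8 and 28.4 CPM and smooth muscle-like cells between 5.84 and 9.25 CPM.

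The question for the mesenchymal cells was how their receptors and NF-κB feedback genes stood after injury relative to day 0. In fibroblast-like cells Nfkbia stood at 145, 378, 375 and 226 CPM on days 0, 3, 7 and 14, and Tnfaip3 at 13.3, 30.8, 48.9 and 14.5 CPM. Both were highest on days 3 and 7. Against day 0, Nfkbia was 2.60 times (2.31 to 2.93), 2.58 times (2.30 to 2.90) and 1.55 times (1.38 to 1.75) as high on days 3, 7 and 14. Tnfaip3 was 2.32 times (1.57 to 3.54), 3.67 times (2.52 to 5.54) and 1.09 times (0.728 to 1.68) as high. Tnfrsf1a was 1.58, 1.57 and 1.63 times as high on the 3 days, with intervals above 1.

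Of the 10 genes, 6 could be compared in fibroblast-like cells on day 3, and 3 were at least 2-fold higher and 0 at least 2-fold lower, where 11.5% and 10.7% of 11228 genes were. On day 7, 9 could be compared and 6 were higher and 0 lower, where 12.1% and 8.85% of 11453 genes were. On day 14, 6 could be compared and 0 were higher or lower, where 8.87% and 5.06% of 11748 genes were. The median log2 ratio was 0.93, 1.45 and 0.33 over the genes compared on days 3, 7 and 14, and -0.05, -0.01 and -0.03 over all genes. The named genes were chosen with earlier results of these data known. Their counts, here and in the classes below, are therefore no independent test against all genes.

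The day 7 count in fibroblast-like cells included 3 genes that were almost absent from these cells. Tnf had 22 UMIs against 0 on day 0 (at least 2.73-fold higher, with 0 set to 3 UMIs in the summed cells), Traf1 had 31 against 0 (at least 3.85-fold higher) and Ltb had 31 against 2 (5.77; 1.47 to 49.8). On day 7 the fibroblast-like cells held 9 of 9 T cell markers at 33.5 CPM in sum and 13 of 14 monocyte/macrophage markers at 544 CPM. On day 0 they held 9 of 9 at 86.9 CPM and 6 of 14 at 2686 CPM. The part of these transcripts in the 3 ratios was not tested. Without the 2 clusters of very deep cells (led by Saa3 and Prg4, median 55953 UMIs, and by Hist1h2ap and Timp1, median 62488 UMIs), 2 of the 10 genes were at least 2-fold higher on day 7. These were Tnfrsf1b (2.06) and Tnfaip3 (2.62), and Nfkbia came to 1.77. On day 3 the count stayed at 3. The shares over all genes given above are those of the whole class, so these counts have no background to be read against.

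The fibroblast-like clusters differed between days. On day 0 most cells lay in the clusters led by Rbp4 and Fmo2 (141 cells) and by Clec3b and Gsn (82 cells), on day 3 in the latter (108 cells), on day 7 in that led by Col2a1 and Cpxm2 (110 cells) and on day 14 in that cluster (204 cells) and in one led by C1qtnf3 and Igfbp5 (173 cells). In the Clec3b cluster, which had cells on every day, Nfkbia stood at 87.6, 116, 119 and 189 CPM on days 0, 3, 7 and 14. The intervals of days 0, 3 and 7 overlapped, and that of day 14 (154 to 231) lay above that of day 0 (61.4 to 121). In the Rbp4 cluster Nfkbia stood at 166 CPM (147 to 187) on day 0 and 229 CPM (196 to 267) on day 14. In the Col2a1 cluster, which had 1 cell on day 0, it stood at 392.5, 263 and 167 CPM on days 3, 7 and 14, and in the Saa3 cluster at 504 and 526 CPM on days 3 and 7. The Clec3b cluster was shallow (median 1207 UMIs), had 16 cells on day 7 and had at most 4 Tnfaip3 UMIs and 2 Tnfrsf1b UMIs on a day, so its levels of these 2 genes could not be compared. Tnfaip3 stood at 13.7 CPM (8.57 to 20.7) in the Rbp4 cluster on day 0, and at 35.4 and 36.5 CPM in the Col2a1 cluster on days 3 and 7. The part of the change of clusters in the class levels was not tested. A list of 12 stress genes known to be induced by tissue digestion, such as Fos and Hspa1a, summed to 4661, 4262, 6961 and 10393 CPM in fibroblast-like cells on days 0, 3, 7 and 14, and 2, 2 and 8 of the 12 were at least 2-fold higher than on day 0. The part of these genes in the levels of Nfkbia and Tnfaip3 was not tested.

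**Figure D3:**
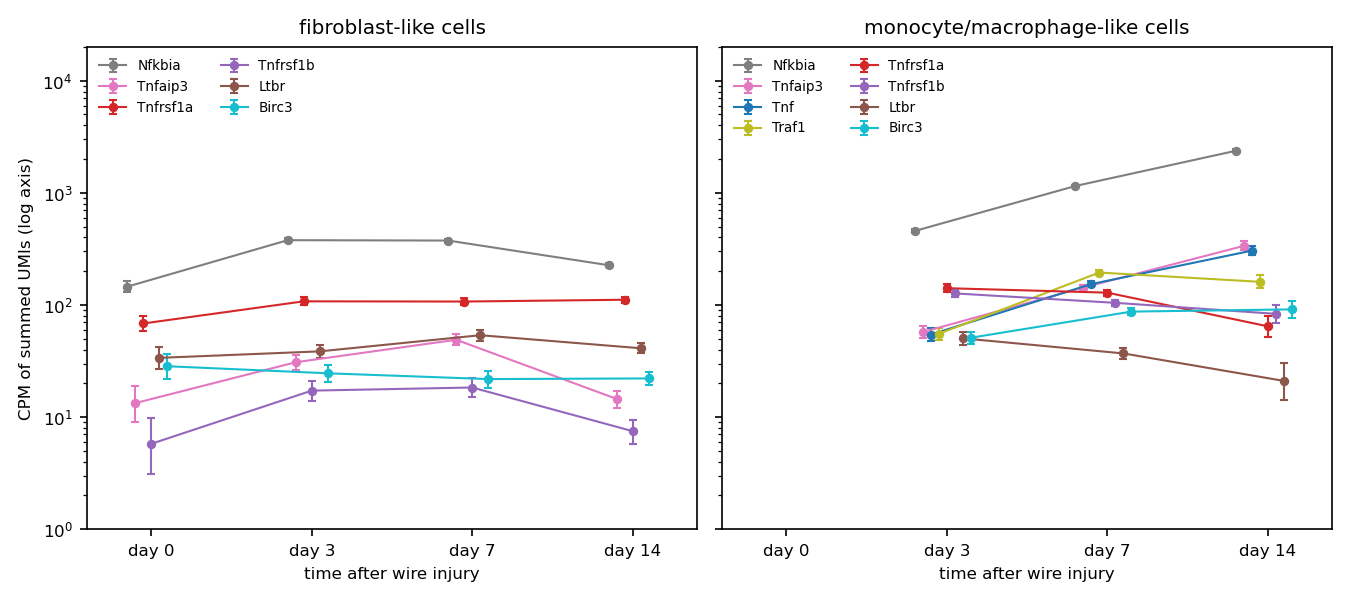
Levels (CPM of summed UMIs, log axis) of the genes in fibroblast-like cells (left) and monocyte/macrophage-like cells (right) by day, with 95% Poisson intervals for counting error as bars, 1 library per day. In fibroblast-like cells Nfkbia, Tnfaip3 and Tnfrsf1b were highest on days 3 and 7, and in monocyte/macrophage-like cells Nfkbia, Tnfaip3 and Tnf were higher on each later day while Tnfrsf1a and Ltbr were lower.

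Smooth muscle-like cells gave little. Day 0 held 23 of them, 16 in a shallow cluster, so that 5, 4 and 4 of the 10 genes could be compared on days 3, 7 and 14. On each day 1 gene was at least 2-fold higher (Tnfrsf1a; 2.29, 2.83 and 2.59) and 1 at least 2-fold lower (Tnfaip3; 0.296, 0.483 and 0.232). Of all genes compared in these cells, 10.9% were higher and 13.9% lower on day 3, 14% and 8.7% on day 7, and 10.9% and 9.63% on day 14. The intervals of the 3 Tnfrsf1a ratios included 1, and so did that of Tnfaip3 on day 7, which came to 1.03 when the cells were clustered at resolution 1.5. Nfkbia differed by no more than 1.39 times from day 0, and its intervals included 1. Of the 12 digestion stress genes, 1 was higher on each day and 3, 1 and 3 were lower on days 3, 7 and 14. Their median log2 ratio was -0.66, -0.63 and -0.54, against -0.20, -0.03 and -0.06 over all genes. Their part in the Tnfaip3 ratios was not tested.

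The question for the immune classes was how the genes stood on days 7 and 14 relative to day 3. In monocyte/macrophage-like cells, Tnf was 2.82 times (2.46 to 3.24) its day 3 level on day 7 and 5.60 times (4.78 to 6.57) on day 14. Tnfaip3 was 2.50 times (2.18 to 2.86) and 5.87 times (5.03 to 6.85), Nfkbia 2.52 times (2.40 to 2.64) and 5.19 times (4.91 to 5.48), and Traf1 3.52 times (3.08 to 4.03) and 2.91 times (2.42 to 3.49) as high. The receptors went the other way. On day 14 Tnfrsf1a stood at 0.457 (0.362 to 0.571), Ltbr at 0.417 (0.273 to 0.616) and Tnfrsf1b at 0.657 (0.534 to 0.804) of the level of day 3.

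On day 7, 9 of the 10 genes could be compared and 5 were at least 2-fold higher (the fifth was Ltb, at 3.94 from 10 and 75 UMIs) and 0 lower, where 5.92% and 3.99% of 11014 genes were. On day 14, 8 could be compared, 4 were higher and 2 lower, where 6.25% and 10.3% of 9842 genes were. The median log2 ratio was 1.32 and 1.19 over the genes compared on days 7 and 14, and -0.11 and -0.16 over all genes. The list of 12 digestion stress genes moved with these values. It summed to 5626, 11910 and 18248 CPM in monocyte/macrophage-like cells on days 3, 7 and 14, with 8 and then 11 of the 12 at least 2-fold higher than on day 3. Its part in the levels of Tnf, Nfkbia and Tnfaip3 was not tested. Neutrophil markers summed to 102, 93.9 and 41.3 CPM in these cells (8, 8 and 4 of 8), and their part in the Tnf levels was not tested.

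The clusters that made up the class changed too, from that led by Pf4 and Ccl6 on day 3 (275 of 468 cells) to those led by Cxcl9 and Lyz2 (407 of 879) and by Ms4a7 and C1qa (264) on day 7 and to the latter on day 14 (129 of 161). Within the Ms4a7 and C1qa cluster, Tnf stood at 92.3, 219.6 and 330.4 CPM on days 3, 7 and 14, Tnfaip3 at 88.8, 228 and 373 CPM, and Nfkbia at 514, 1551 and 2554 CPM. None of these intervals overlapped between days. Within the Cxcl9 and Lyz2 cluster, Tnf stood at 82.6, 121 and 304 CPM, and Nfkbia at 739, 999.8 and 2176 CPM, with day 14 resting on 15 cells. In the Ms4a7 and C1qa cluster alone, Tnf was 2.38 and 3.58 times its day 3 level on days 7 and 14, and 3 and 5 of the 10 genes were at least 2-fold from day 3. These counts are not split by direction and have no share over all genes of that cluster beside them, so nothing is read from them. The interferon-response cluster, led by Ifit1 and Ifit3, went the other way, with Tnf at 86.8 CPM on day 3 and 36.4 CPM on day 7.

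**Figure D4:**
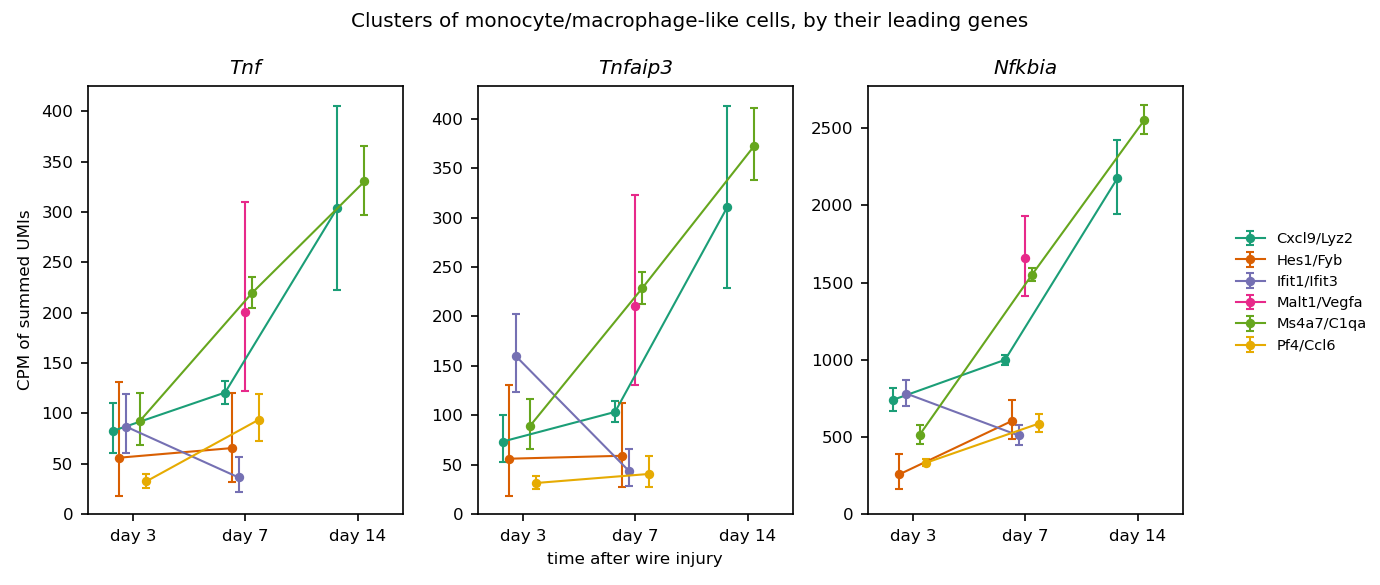
Levels of Tnf, Tnfaip3 and Nfkbia (CPM of summed UMIs) by day in each cluster of monocyte/macrophage-like cells with at least 10 cells on the day, with 95% Poisson intervals for counting error. In the clusters led by Ms4a7/C1qa and Cxcl9/Lyz2 all 3 genes were highest on day 14, whereas the Ifit1/Ifit3 cluster had lower levels on day 7 than on day 3.

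Single monocyte/macrophage-like cells with a Tnf UMI also held more Nfkbia. With each cell thinned to 1000 UMIs, Nfkbia stood at 1034 CPM in 29 cells with a Tnf UMI and 357 CPM in 431 without on day 3, at 2462 CPM in 106 and 906 CPM in 758 on day 7, and at 4167 CPM in 30 and 1846 CPM in 104 on day 14. The ratios were 2.90 (1.89 to 4.30), 2.72 (2.35 to 3.14) and 2.26 (1.79 to 2.84), and 2.43, 2.76 and 1.97 without thinning. For Tnfaip3 the thinned ratios were 2.03 (0.388 to 6.75), 2.59 (1.57 to 4.15) and 1.49 (0.754 to 2.79), of which day 7 was separated from 1. Without thinning they were 3.33 (2.58 to 4.31), 3.66 (3.17 to 4.24) and 1.97 (1.52 to 2.58), all separated from 1. For the receptor genes most intervals included 1. The thinned ratios of Tnfrsf1b were 1.17 (0.306 to 3.17), 0.380 (0.121 to 0.920) and 0.867 (0.157 to 3.21) on days 3, 7 and 14, and those without thinning were 0.758 (0.627 to 0.912), 0.864 (0.757 to 0.986) and 0.931 (0.610 to 1.46). The thinned ratios of Tnfrsf1a were 1.95 (0.805 to 4.09), 0.770 (0.410 to 1.34) and 3.47 (0.646 to 18.6), and those without thinning were 0.984 (0.831 to 1.16), 0.727 (0.645 to 0.818) and 0.880 (0.546 to 1.46). The thinned ratios of Traf1 were 0.550 (0.0134 to 3.34), 1.11 (0.711 to 1.67) and 4.85 (2.00 to 12.2), and those without thinning were 1.40 (1.08 to 1.81), 0.956 (0.868 to 1.05) and 5.53 (3.16 to 10.6). Before thinning, cells with and without a Tnf UMI had medians of 11953 and 7199 UMIs on day 3. The medians were 11990.5 and 7210 on day 7, and 10750 and 2215 on day 14. The cells were pooled over the clusters of the class. The part of the clusters, of neutrophil transcripts and of the stress genes in these ratios was not tested. Cells are not replicates, and these values describe each library.

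Dendritic-like cells had higher levels of the NF-κB feedback genes and of Tnf on later days. Against day 3, Tnfaip3 was 2.35 and 7.43 times, Nfkbia 2.70 and 5.55 times, Traf1 1.85 and 2.31 times and Tnf 1.91 and 2.30 times as high on days 7 and 14. Of 9 genes compared on day 7, 3 were at least 2-fold higher and 0 lower, where 4.08% and 3.89% of all genes were, and of 9 on day 14, 5 were higher and 0 lower, where 7.08% and 10.6% were. The fifth gene of day 14 was Birc3 (2.98; 2.03 to 4.31). Ltb was 2.68 times its day 3 level on day 7, and on day 14 its ratio of 1.45 was not separated from 1 (0.821 to 2.42). Of the receptors, Tnfrsf1a was lower on day 14 (0.568; 0.319 to 0.945), and Tnfrsf1b (1.27; 0.698 to 2.18) and Ltbr (0.732; 0.306 to 1.51) were not separated from day 3. The stress list summed to 3870, 8437 and 13190 CPM in these cells on days 3, 7 and 14, and its part in these levels was not tested. The cluster led by Cd209a and Mgl2 held 128 of 149, 272 of 302 and 32 of 46 cells of the class on days 3, 7 and 14. In mature dendritic-like cells, of 7 genes compared on day 7, Tnf (7.12; 2.59 to 27.4) and Ltb (2.42; 1.02 to 6.64) were higher and 0 were lower, where 8.35% and 6.59% of all genes were. The stress list summed to 3063 and 6884 CPM in them.

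In T cell-like cells 9 genes could be compared on day 7, and Lta (2.72; 1.01 to 10.3) and Traf1 (2.35; 1.78 to 3.14) were at least 2-fold higher and 0 lower, where 7.26% and 4.57% of all genes were. The Lta ratio rested on the few day 3 UMIs given above, and nothing is read from it. On day 14, of 8 compared, 1 was higher, Nfkbia (2.08; 1.76 to 2.46), and 0 were lower, where 7.01% and 5.49% were. Ltb and Tnfaip3 came to 1.82 and 1.74. In NK cell-like cells only Ltb was higher of 7 genes compared on day 7, and 0 were lower, where 7.69% and 5.46% of all genes were. On day 14, of 6 compared, Ltb was again higher and Tnfrsf1b was lower (0.492; 0.229 to 0.973), where 5.09% and 7.67% were. With 1 or 2 genes past 2-fold of 6 to 9 compared, nothing is read from these shares. For T cell-like cells the stress list summed to 4909, 4658 and 8873 CPM on days 3, 7 and 14, and for NK cell-like cells it summed to 3592, 5599 and 10804 CPM, each highest on day 14.

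In neutrophil-like cells, of 9 genes compared on day 7, Traf1 was higher (2.14; 1.66 to 2.77) and Tnf was lower (0.395; 0.344 to 0.452), where 6.8% and 5.9% of all genes were. Tnfaip3 (0.589; 0.516 to 0.670) and Nfkbia (0.721; 0.689 to 0.756) were lower by less than 2-fold. The 2 TNF receptor genes stood within 5% of their day 3 levels, at 0.993 for Tnfrsf1a and 1.04 for Tnfrsf1b. The stress list summed to 18963 and 22983 CPM, and its part in these levels was not tested.

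**Figure D5:**
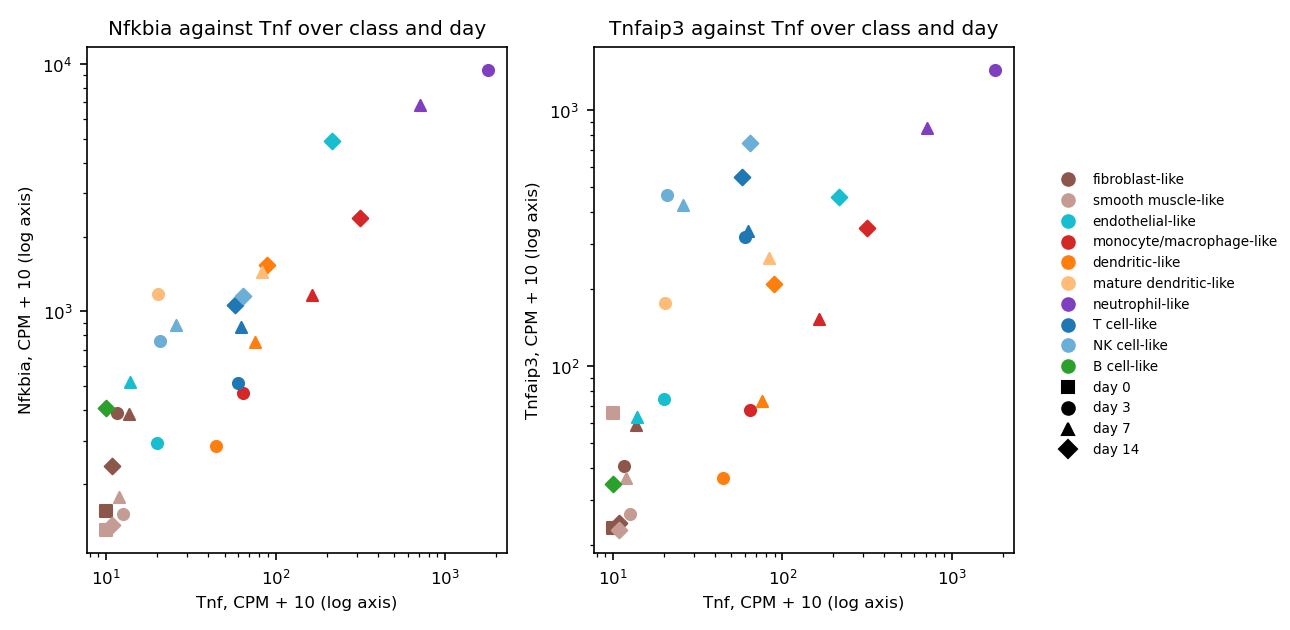
Level of Nfkbia (left) and Tnfaip3 (right) against that of Tnf, each as CPM + 10 on log axes, 1 point per class (colour) and day (shape) with at least 20 cells. Neutrophil-like cells had the highest levels of all 3 genes, NK cell-like and T cell-like cells had more Tnfaip3 than other classes of like Tnf level, and the endothelial-like point of day 14 rests for Tnf on 1 cell.

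Endothelial-like cells had no usable day 0 (7 cells). On days 3 and 7 they held Nfkbia at 284 CPM (215 to 367) and 506 CPM (458 to 559), Traf1 at 19.9 CPM (5.42 to 50.9) and 106 CPM (84.1 to 131) and Tnfaip3 at 64.7 and 53.4 CPM. Nfkbia and Traf1 were thus higher on day 7, without overlap of the intervals. On day 14 Nfkbia stood at 4864.5 CPM in 24 cells, and at 3592 CPM without the 1 cell that held Tnf, while Tnfaip3 went from 447 to 179.6 CPM without it. The stress list summed to 3154, 5686 and 13773 CPM in these cells on days 3, 7 and 14, and monocyte/macrophage markers to 572, 961 and 10810 CPM. On day 14 the 1 cell that held Tnf had 20245 of the 53654 UMIs of the class. The monocyte/macrophage markers stood at 25241 CPM in that cell and at 2065 CPM in the other 23. The part of the stress genes and of these markers in the levels was not tested.

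Over the 28 groups of class and day, Nfkbia was the member most like Tnf, with a Pearson's r of log2(CPM + 10) of 0.89, and Tnfaip3 and Nfkbia had an r of 0.86. The genes whose pattern was most like that of Tnf among 11599 genes with at least 200 UMIs were Lilrb4a (0.95), Lilr4b (0.92) and AC127341.3 (0.92). For Ltb they were Acap1 (0.92), Tbc1d10c (0.91) and Atp11b (0.89), and for Traf1 Malt1, Tap2 and Tspan13 (0.93, 0.92 and 0.92). For Nfkbia they were Tnf itself, Map3k8 and Irf1 (0.89, 0.89 and 0.87). For Tnfrsf1a they were Sec14l1, Csnk1e and Rab7, for Tnfrsf1b Gmip, Chd7 and Cxcr4, for Ltbr App, Wdfy3 and Myadm, for Tnfaip3 H2-Q10, 2310001H17Rik and Nfkbia, and for Birc3 N4bp2l1, Mthfsl and Kdm6b, with r between 0.83 and 0.93. Lta had under 200 UMIs and was left out. The endothelial-like group of day 14 was among the 28, and all 11 of its Tnf UMIs lay in 1 cell. Values of r without this group are not given. Groups of a day share a library and its depth, and no test was made.

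The wider pathway was read from lists of other family ligands and receptors, signalling proteins, NF-κB subunits and inhibitors, shedding proteins and target genes. These lists were chosen with earlier results of these data known. Their counts, here and in the other classes below, are therefore descriptions and not an independent test against the shares over all genes. In fibroblast-like cells on day 7, of 16 target genes compared with day 0, 12 were at least 2-fold higher and 2 lower, with a median log2 ratio of 2.05. Of 7 family receptors, 5 were higher and 1 lower, and of 22 signalling proteins, 3 were higher and 0 lower. Over all genes in this comparison 12.1% were higher and 8.85% lower, so the share of signalling proteins that were higher stood near the background. The largest ratios belonged to chemokine and cytokine genes. Ccl2, which attracts monocytes, had 1991 UMIs against 1 (741-fold; 133 to 29300), the neutrophil attractant Cxcl2 had 866 against 0 (at least 107.5-fold higher), Il6 had 241 against 1, and Cxcl1 was 35.8-fold higher (24.2 to 55.4). With 0 or 1 UMI on day 0, Ccl2, Cxcl2 and Il6 passed the 20-UMI rule only through day 7 and could be counted only as higher. Tnfsf12, which encodes TWEAK (0.329), the lymphocyte attractant Ccl19 (0.348) and Timp3, an inhibitor of the protease that sheds TNF (0.438), were lower. Without the 2 clusters of very deep cells, 9 of 14 target genes compared were higher and 2 lower, while the shares over all genes are those of the whole class. Ccl2 then came to 118-fold (21.0 to 4692), Cxcl2 to at least 60.1-fold higher, Il6 to 43.9-fold and Cxcl1 to 12.7-fold (8.52 to 19.8), and Timp3 was no longer 2-fold lower (0.619). Neutrophil-like cells held Cxcl2 at 28968 CPM on day 7, against 143 CPM in fibroblast-like cells, and neutrophil markers summed to 111 CPM (1 of 8) and 18.0 CPM (7 of 8) in fibroblast-like cells on days 0 and 7. Their part in the Cxcl2 ratio was not tested.

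In monocyte/macrophage-like cells on day 14, of 13 target genes compared with day 3, 7 were at least 2-fold higher and 1 lower, with a median log2 ratio of 1.44. Of 12 NF-κB inhibitors and feedback genes, 4 were higher and 0 lower, and of 22 signalling proteins, 0 were higher and 2 lower. Over all genes in this comparison 6.25% were higher and 10.3% lower, so the share of signalling proteins that were lower stood near the background. Ccl5, a lymphocyte-attracting chemokine, was 35.7-fold higher (25.2 to 52.0), Tnfsf9, the ligand of the co-stimulatory receptor 4-1BB, 7.28-fold (6.18 to 8.59) and Cxcl1 5.68-fold (4.68 to 6.90). The stress gene Atf3 was 5.75-fold higher. Of the 12 digestion stress genes 11 were higher, with a median log2 ratio of 1.71, and their part in the values of the target and feedback genes was not tested. Ccl2 (0.409), Rhbdf2, which carries the TNF-shedding protease to the surface (0.454), the death receptor gene Tnfrsf21 (0.477) and Casp8, a caspase of the TNF receptor complex (0.488), were lower.

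Target genes were not mostly higher in every class. In neutrophil-like cells on day 7, 2 of 12 compared were higher and 1 lower, with a median log2 ratio of -0.02. Of all genes in this comparison 6.8% were higher and 5.9% lower. In T cell-like cells on day 7, 4 of 13 were higher and 1 lower (median log2 ratio 0.75), where 7.26% and 4.57% of all genes were. In NK cell-like cells on day 7, 2 of 9 were higher and 3 lower, where 7.69% and 5.46% were. On day 14, 1 of 8 was higher and 2 lower in T cell-like cells, where 7.01% and 5.49% of all genes were. In NK cell-like cells 1 of 5 was higher and 2 lower on that day, where 5.09% and 7.67% of all genes were. With so few target genes compared, nothing is read from the day 14 counts. Of the 5 NF-κB subunits, 3 were lower and 0 higher in NK cell-like cells on day 14. Of all genes in this comparison 7.67% were lower and 5.09% higher. The median log2 ratio was -1.04 over the 5 subunits and -0.03 over all genes. The 3 lower subunits were Nfkb1 (0.405), Rel (0.459) and Nfkb2 (0.487). The interval of Nfkb2 (0.179 to 1.15), from 27 and 7 UMIs on days 3 and 14, included 1.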

How the data were processed

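The deposited files hold raw UMI counts per gene and barcode, which the authors made with Cell Ranger 3.0.2 (per the file headers; the methods name another version) and did not normalise. Here, barcodes with under 200 genes or over 20% mitochondrial UMIs were removed (453), and the highest Scrublet doublet scores at 0.8% per 1000 barcodes (106; Scrublet's own threshold marked 15). Some barcodes met both criteria, and 5619 were kept. Libraries were clustered together without the 10 genes and pathway lists (scanpy 1.11.5, 2000 variable genes, 30 components, 15 neighbours, Leiden resolution 1, leidenalg 0.10.2, igraph 0.11.9). A class name needed 3 markers. The study's own annotation was not used, so differences from it may come from the rebuilt names. UMIs were summed per class and day, with exact Poisson intervals for CPM, exact conditional binomial intervals for ratios and exact binomial ones for shares. A sum of 0 was set to 3 UMIs. For shares of cells, each cell was thinned to 1000 UMIs and shallower cells left out. The ratio step was checked on simulated counts. Total UMIs per library set the precision. All 10 genes were named, and pathway genes were named by ratio (the 4 largest each way with at least 100 UMIs in 2 comparisons). The members and lists were chosen with earlier results of these data known. Alternatives varied filters, doublets, clustering, summing, fold and thinning.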

Additional observations from a re-analysis of the deposited data

Results flagged for a closer look

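Tnfaip3 went opposite ways in 2 cell classes between day 0 and day 3. Its level on day 3 was 2.32 times that of day 0 in fibroblast-like cells (1.57 to 3.54; 30 and 172 UMIs) and 0.296 times that of day 0 in smooth muscle-like cells (0.126 to 0.849; 6 and 45 UMIs). The difference between the classes was not tested, and the day 0 value of smooth muscle-like cells comes from 23 cells. The digestion stress genes had a median log2 ratio of -0.16 in fibroblast-like and -0.66 in smooth muscle-like cells, and their part was not tested.

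Tnf went opposite ways between day 3 and day 7. The ratio was 2.82 in monocyte/macrophage-like cells and 7.12 in mature dendritic-like cells, the latter from 4 and 42 UMIs, and it was 0.395 in neutrophil-like cells. With 1 library per day these differences were not tested.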

How the results depend on the processing

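No paired analysis was possible because each day has 1 library, and for the same reason no library could be left out. Of 1634 values recomputed under the alternatives, 1418 kept within their counting interval or, for counts, within 1.5 times, 215 moved and 1 reversed. The reversed value was Tnfaip3 in smooth muscle-like cells on day 7 against day 0, 0.483 as reported and 1.03 at resolution 1.5. The cause was not tested.

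The number of the 10 genes past 2-fold moved as follows. With no cell filter it was 1 in smooth muscle-like cells on each of days 3, 7 and 14. With doublets kept it was 1 in smooth muscle-like cells on day 7 and 1 in NK cell-like cells on day 14, and the latter was also 1 at resolution 1.5 and with libraries clustered separately, where T cell-like cells on day 14 had 2. When cells were averaged with equal weight it was 2 in fibroblast-like cells on day 14, 1 in smooth muscle-like cells on day 3, and 1 and 3 in T cell-like cells on days 7 and 14. With 10 CPM added to both levels it was 1 and 2 in fibroblast-like cells on days 3 and 7, 1 in smooth muscle-like cells on both days, and 1 in T cell-like cells on day 7, in NK cell-like cells on day 14 and in mature dendritic-like cells on day 7. At 1.5-fold it was 2 in fibroblast-like cells on day 14, 6 in dendritic-like cells on day 7, 4 in T cell-like cells on both days, and 2 and 4 in NK cell-like cells on days 7 and 14. With at least 50 UMIs it was 3 in fibroblast-like cells on day 7, 1 in smooth muscle-like cells on days 7 and 14, and 0 in mature dendritic-like cells on day 7. These counts are given without a share over all genes under the same alternative, so nothing is read from them about the 10 genes.

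The shares of ligand UMIs moved with the clustering. At resolution 1.5, T cell-like cells held 92.6% of Lta on day 7 and 66.6% and 87.9% of Ltb on days 7 and 14. With libraries clustered separately, they held 87.7% of Lta on day 7 and 65.0% and 57.4% of Ltb on days 7 and 14, and monocyte/macrophage-like cells held 13.7%, 51.1% and 77.1% of Tnf on days 3, 7 and 14. Alternatives chosen after seeing the data gave 2 genes in fibroblast-like cells on day 7 without the 2 deepest clusters, and 3 in monocyte/macrophage-like cells on day 7 in the cluster led by Ms4a7 and C1qa alone. These counts have no share over all genes of their own. Smooth muscle-like cells without their shallow cluster gave no value, since 7 of the 23 cells of day 0 remained.

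Depth limits the comparisons with day 0 (329 cells kept), those of Lta (105 UMIs in all) and those of Tnf outside myeloid cells.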

Other observations

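Cells that received no class name also held these transcripts. On day 7, 466 unnamed cells had 169 Tnf UMIs (123 CPM; 106 to 143), 167 Ltb UMIs (122 CPM) and Nfkbia at 871 CPM, against 22.1 CPM of Tnf, 9.82 CPM of Ltb and 212 CPM of Nfkbia in 133 unnamed cells of day 3. Of the unnamed cells of day 7, 331 lay in a cluster of shallow cells led by Snhg9 and Oas2 (median 757 UMIs) that had no cell on days 0 and 3. On day 14, 127 unnamed cells had 5 Tnf and 5 Ltb UMIs.

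A cluster of 40 monocyte/macrophage-like cells led by Malt1 and Vegfa, of which 37 lay in the day 7 library, held Traf1 at 713 CPM (557 to 900) on that day, against 72.6 CPM (63.9 to 82.2) in the cluster led by Ms4a7 and C1qa. The 2 clusters did not differ in Tnf beyond their intervals on that day (200.9 and 219.6 CPM). The whole monocyte/macrophage-like class, which includes both, held Traf1 at 194.5 CPM on day 7.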
